A study of Mus musculus with 9 samples.

Results

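Fat cells of the skin lie in a layer under the dermis, and 10 genes of that cell type were followed here: the hormone genes Lep, Adipoq and Retn, the secreted protease gene Cfd, the lipid-handling genes Fabp4, Lpl, Lipe and Plin1, the master regulator Pparg, and Slc2a4. The members were all probe sets that the platform annotation gives to these genes. It gives 11 of the array's 12488 probe sets to 8 of the 10 genes, among 8252 genes named in all, and 10 of the 11 passed a filter on dim signals. Cfd and Plin1 have no annotated probe set and were not analysed here. Lep, Lpl and Slc2a4 have 2 probe sets each.

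RNA from whole skin was read on Affymetrix MG-U74 arrays, short-oligonucleotide chips that report 1 signal per probe set. There were 5 Cd1d -/- mice, which lack an antigen-presenting molecule for lipids, and 4 Cd1d +/+ mice. All 9 were inbred animals of C57BL/6 background that had received no ultraviolet light, with age and sex matched, and each had an array of its own. The age, the sex, the C57BL/6 substrain and the deleted part of the gene are not given in the sources used here. Whole skin also holds striated muscle, hair follicles and sebaceous glands, and in such bulk tissue fewer fat cells and less RNA per fat cell cannot be told apart.

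White fat cells store triglyceride in a single large droplet and release it as fatty acids when other tissues need fuel. They also secrete hormones, of which leptin reports the size of the fat store to the brain and adiponectin increases insulin sensitivity. In mouse skin the fat layer thickens and thins with the hair growth cycle. The transcription factors PPARG and C/EBP alpha switch on most of the genes that define the cell.

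The 250 bases before the RefSeq start (build GRCm38.p6) are shown for 3 hormone genes. Lep gave the widest genotype difference among the members, at the dimmer of its probe sets alone. The signals of Adipoq and Retn varied together between mice. Capitals mark matches, on either strand, to the C/EBP motif TTNNGCAA, the CCAAT box or the GC box GGGCGG.
Lep, chr6:29059971-29060220, plus strand: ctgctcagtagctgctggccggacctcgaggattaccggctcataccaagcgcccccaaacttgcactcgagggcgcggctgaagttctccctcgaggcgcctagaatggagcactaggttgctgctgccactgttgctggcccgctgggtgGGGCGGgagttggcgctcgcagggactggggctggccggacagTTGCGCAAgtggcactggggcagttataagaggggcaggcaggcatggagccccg
Adipoq, chr16:23146286-23146535, plus strand: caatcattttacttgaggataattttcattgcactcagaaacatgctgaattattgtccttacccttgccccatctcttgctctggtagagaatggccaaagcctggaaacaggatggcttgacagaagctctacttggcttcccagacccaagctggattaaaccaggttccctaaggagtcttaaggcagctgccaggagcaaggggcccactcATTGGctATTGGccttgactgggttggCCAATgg
Retn, chr8:3655520-3655769, plus strand: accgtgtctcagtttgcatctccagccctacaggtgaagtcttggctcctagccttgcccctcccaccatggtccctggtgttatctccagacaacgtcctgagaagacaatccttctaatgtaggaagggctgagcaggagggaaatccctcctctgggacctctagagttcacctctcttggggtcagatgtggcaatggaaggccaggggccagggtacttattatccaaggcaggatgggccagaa

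The Lep window holds TTGCGCAA, a match to the C/EBP letters on both strands, from 55 to 48 bases before the start, and a GC box. The C/EBP letters occur in 9.56% of the 32851 promoter windows of this length in the RefSeq table. The Adipoq window holds the CCAAT letters at 3 places, and 33.8% of all windows hold them at least once. The Retn window holds none of the letters searched, which also included TATAAA (in 12.4% of windows) and the direct repeat bound by PPARG with RXR (in 0.0335%). Neither of the last 2 was found in the Lep or Adipoq window. The GC box occurs in 32.7% of windows. These are matches of letters and show no binding.

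The arrays had been scaled alike, with trimmed mean signals of 200.11 to 200.133, and pairs of arrays correlated at 0.892 to 0.968 over the 7658 probe sets kept for testing. Dim probe sets were left out: at least 4 arrays had to reach their own 40th percentile, which lay at 43.4 to 53.3 units. Cd1d1, the targeted gene, read 58.2, 65, 79.6, 47.6 and 51.1 for the knockout animals and 112.4, 101.1, 91 and 130 for the wild-type animals, and where its probes lie relative to the deletion is unknown. Xist lay between 125.5 and 372.5 in the 9 mice, and the Y-linked genes Kdm5d, Eif2s3y and Uty read at most 19, below the filter level. The last decimals of the deposited values divide the arrays into a 7-decimal set (knockout 1 and 2, wild type 2, 3 and 4) and a 9-decimal set (knockout 3, 4 and 5, wild type 1), and results are also given within each.

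Values for single mice are given below in the order of their numbers, knockout 1 to 5 and wild type 1 to 4. Leptin gave the widest genotype difference among the members, at the dimmer of its 2 probe sets. The dimmer probe set read 153.4, 41.6, 278.2, 154.5 and 160.7 in the knockout mice. In the wild-type mice it read 34, 37.7, 37.4 and 37.7. The groups did not overlap, although knockout 2 lay close to the wild-type mice and the other 4 knockout mice were at least 153.4.

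The means were 158 ± 83.7 (SD, n = 5) in knockout and 36.7 ± 1.81 (SD, n = 4) in wild-type skin. The log2 difference, knockout minus wild type, was 1.88 (SE 0.42, 95% interval 0.95 to 2.80). With limma and adjustment over all kept probe sets p was 0.235, so the probe set did not pass the threshold of 0.05. The exact two-sided permutation test over the arrays gave p = 0.0159, where 0.00794 is the smallest that the 126 arrangements can give. All 4 wild-type values and that of knockout 2 lie below the filter level, so the probe set was kept through 4 knockout arrays alone. The fold is therefore uncertain, and these limma and permutation p values support nothing by themselves. Lep was also among the members chosen with earlier results of these data known. With 64 added to each signal the difference was 1.04. Without knockout 2 it was 2.30 and passed (limma adjusted p = 0.00432). The knockout mice left in that fit are the same 4 through which the probe set was kept, so this pass supports nothing by itself. With single arrays left out the limma adjusted p ran from 0.00432 to 0.592.

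The brighter probe set of Lep read 902.1, 417.2, 1162.3, 650.7 and 1002.2 in the knockout mice. In the wild-type mice it read 694.3, 636.4, 483 and 558.4. Here knockout 2 was the lowest of the 9 mice and knockout 4 lay among the wild-type mice, so the groups overlapped. The means were 827 ± 295 (SD, n = 5) and 593 ± 92.1 (SD, n = 4), a log2 difference of 0.41 (SE 0.26, 95% interval -0.17 to 0.98; limma adjusted p = 0.663). At the brighter probe set the difference was smaller than those of Retn (0.49) and of both Lpl probe sets (0.46 and 0.43). Within the 7-decimal arrays the Lep differences were 0.14 for the brighter and 1.09 for the dimmer probe set. Within the 9-decimal arrays, with their single wild-type mouse, they were 0.39 and 2.49.

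The log2 genotype differences at the dimmer and the brighter Lep probe set lay 1.47 apart. They lay 1.15 apart with 16 and 0.67 with 64 added to each signal. This contrast was chosen after the values had been seen and rests on wild-type signals below the filter level, so it is a description and carries no test. Where on the leptin transcript either set of probes lies is not known from the files.

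**Figure D1:**
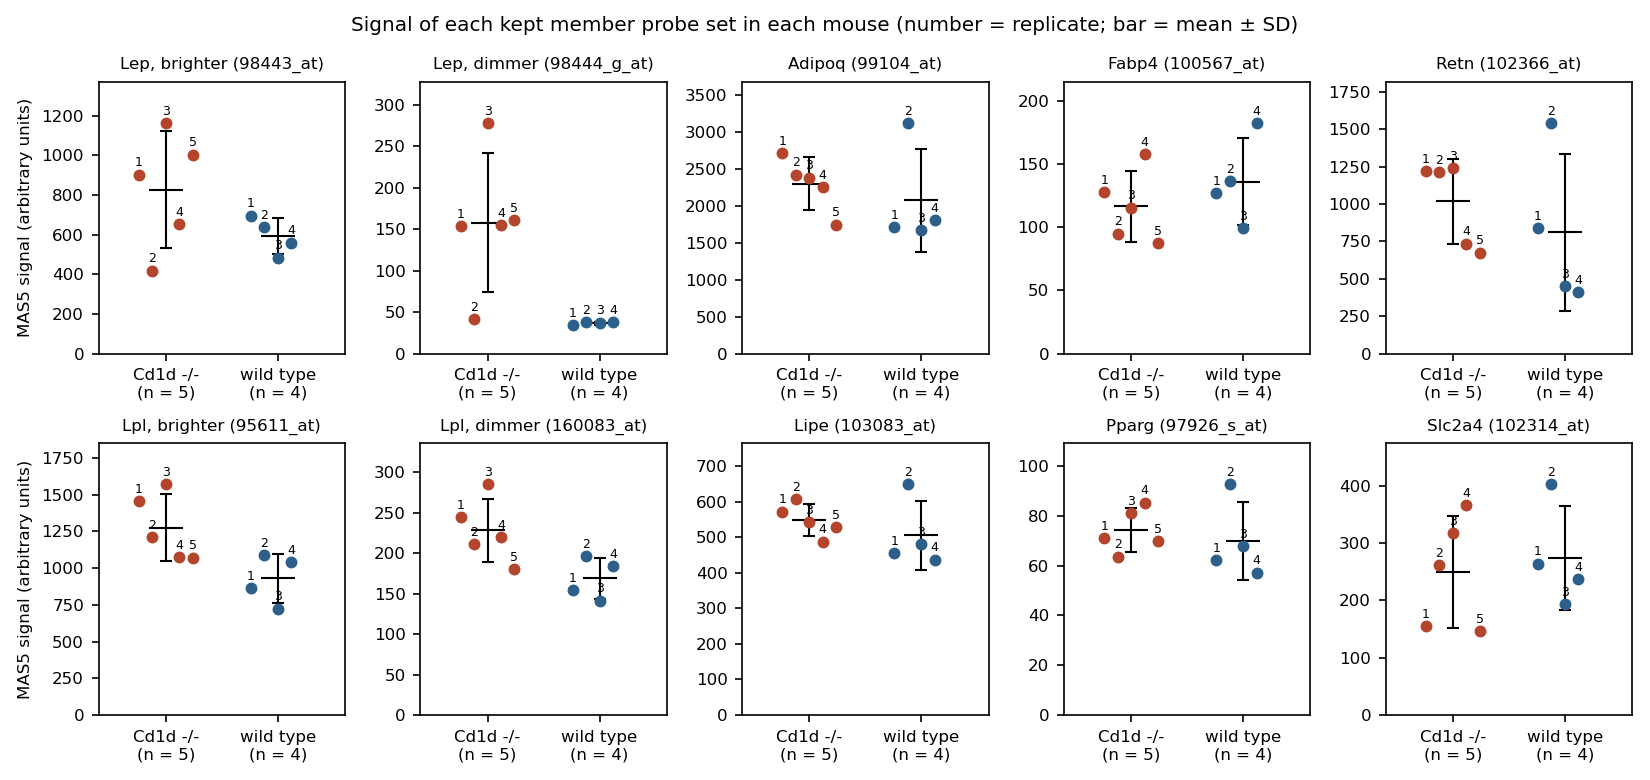
MAS5 signal in arbitrary units (vertical axes, from 0) for the 10 kept probe sets in 5 Cd1d -/- (red) and 4 wild-type mice (blue); the number beside a point is the replicate and the bar is mean ± SD. At the dimmer Lep probe set the wild-type mice sit between 34 and 37.7 and 4 knockout mice at or above 153.4, whereas the groups overlap at each of the other 9 probe sets.

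Of the 10 kept member probe sets, 0 passed limma's test at adjusted p 0.05, against 0.0522% of all kept probe sets in either direction and 0.0261% higher in the knockout. At an unadjusted p under 0.05 there were 3 of 10, namely the dimmer of Lep and both probe sets of Lpl, all higher in the knockout, against 9.4% of all (5.45% higher and 3.96% lower). The groups did not overlap for 1 of 10, the dimmer of Lep, against 3.21% of all (1.83% higher). That probe set was kept only through the group where it is high, so these counts support nothing by themselves. With each gene at its brightest kept probe set, 6 of the 8 genes had higher and 2 lower values in the knockout, with a median log2 difference of 0.16, beside 3003 of 5855 genes higher and a median of 0.0070 over all genes. Of these 5855 genes, 277 were higher and 224 lower at an unadjusted p under 0.05, and the groups did not overlap for 182, counts against which those of the gene lists further on can be read.

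**Figure D2:**
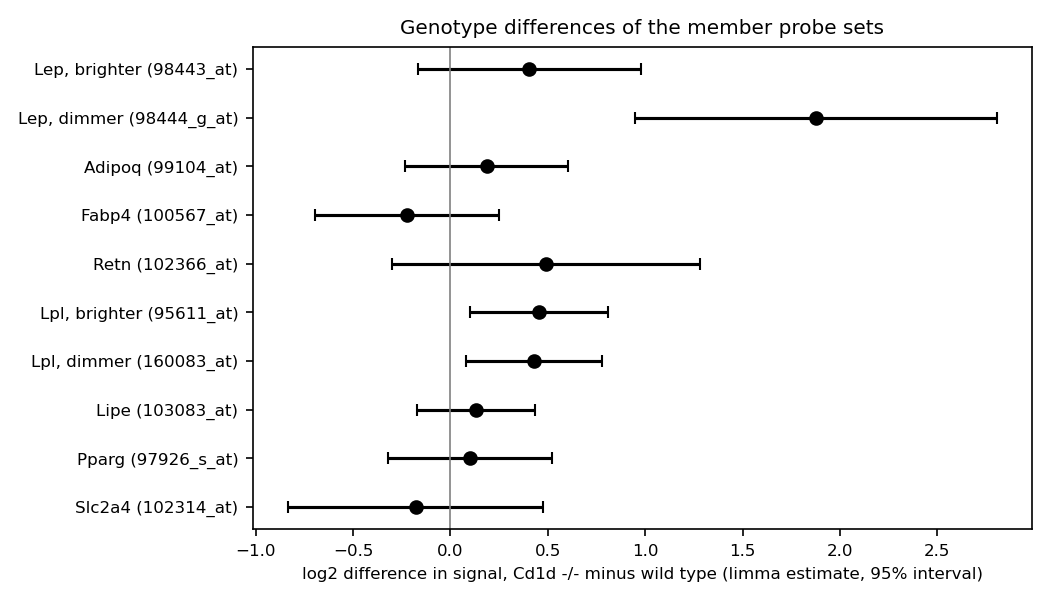
Log2 difference in signal, Cd1d -/- minus wild type (horizontal axis), for the 10 kept member probe sets; points are limma estimates from 5 and 4 mice and bars 95% intervals. The intervals of the dimmer Lep probe set (0.95 to 2.80) and of both Lpl probe sets lie above 0, and the other 7 include 0.

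Adiponectin overlapped between the genotypes. Adipoq read 2711, 2422.8, 2381.1, 2251.3 and 1743.4 for the knockout animals and 1709.2, 3122.4, 1673 and 1804.8 for the wild-type animals. Wild type 2 was the highest of all mice, the other 3 wild-type mice lay within or just below the lower end of the knockout range, and the groups overlapped. The log2 difference was 0.19 (SE 0.19, 95% interval -0.23 to 0.61; limma adjusted p = 0.797). With single arrays left out it ran from 0.099 (without wild type 3) to 0.40 (without wild type 2), with limma adjusted p of 0.933 and 0.421.

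Retn encodes resistin, a cysteine-rich hormone that mouse fat cells secrete. Its signals were 1220.3, 1214, 1239.7, 735.4 and 673.8 for the knockout animals and 838.6, 1541.3, 448.7 and 410.3 for the wild-type animals. Wild type 2 was again the highest and wild type 3 and 4 the lowest, so the wild-type mice held both ends of a 3.76-fold range. The log2 difference was 0.49 (SE 0.36, 95% interval -0.30 to 1.28; limma adjusted p = 0.714), and with single arrays left out it ran from 0.23 (without wild type 4) to 0.87 (without wild type 2), with limma adjusted p of 0.879 and 0.421. The 7-decimal arrays alone gave 0.89 and the 9-decimal arrays alone 0.020.

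Lipoprotein lipase (Lpl), the enzyme that frees fatty acids from circulating lipoproteins for uptake, gave alike genotype differences at its 2 probe sets. The brighter probe set read 1454.5, 1210.8, 1568.8, 1072.2 and 1071.2 for the knockout animals and 865.1, 1089.1, 724.8 and 1040.9 for the wild-type animals. The dimmer read 244.4, 211.2, 284.7, 219.5 and 180.3, and 154.4, 195.8, 141.1 and 184. In both, knockout 3 was the highest mouse and wild type 3 the lowest, and the groups overlapped only through wild type 2 and, at the dimmer, wild type 4.

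The log2 differences of Lpl were 0.46 (SE 0.16, 95% interval 0.10 to 0.81; limma adjusted p = 0.434) at the brighter and 0.43 (SE 0.16, 95% interval 0.08 to 0.78; limma adjusted p = 0.456) at the dimmer probe set. They correspond to 1.37-fold and 1.35-fold. The unadjusted exact permutation p values were 0.0476 and 0.0397. Within the 7-decimal arrays the differences were 0.50 and 0.40, and within the 9-decimal arrays 0.49 and 0.54. The probe sets followed each other across the 9 mice (Pearson r = 0.963, exact permutation p = 0.000201).

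Fatty acids inside the cell are carried by FABP4 and released from stored fat by hormone-sensitive lipase, encoded by Lipe. Lipe had the narrowest range of signals over the 9 mice among the kept members, with 571.9, 607.6, 542.7, 487.6 and 527.7 for the knockout animals and 454.4, 648.3, 479.7 and 437.3 for the wild-type animals. Its highest and lowest mice, wild type 2 and wild type 4, have the same genotype and differ 1.48-fold. The log2 difference was 0.13 (SE 0.14, 95% interval -0.17 to 0.43; limma adjusted p = 0.801), and with single arrays left out it ran from 0.068 (without wild type 4) to 0.26 (without wild type 2). Fabp4 read 127.9, 94.9, 115.3, 157.9 and 87.1 for the knockout animals and 126.8, 136.2, 99 and 182.4 for the wild-type animals. Its groups overlapped over most of their range, and its log2 difference was -0.22 (SE 0.22, 95% interval -0.69 to 0.25; limma adjusted p = 0.791). A fit that added the follicle marker median as a covariate put Fabp4 at 0.022.

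Pparg, the nuclear receptor that drives fat cell formation, was dim and nearly level. It read 71, 63.6, 81.2, 85.3 and 69.8 for the knockout animals and 62.1, 92.6, 67.9 and 57.2 for the wild-type animals, so the knockout mice lay inside the wild-type range. The log2 difference was 0.10 (SE 0.19, 95% interval -0.32 to 0.52; limma adjusted p = 0.901), and -0.082 within the 7-decimal arrays against 0.34 within the 9-decimal arrays.

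Slc2a4 encodes GLUT4, the glucose transporter that insulin brings to the surface of fat and muscle cells. Its brighter probe set read 155.5, 262.1, 317.8, 366 and 146.7 for the knockout animals and 264.2, 402.6, 193.5 and 237.2 for the wild-type animals. Knockout 1 and 5 were the lowest and wild type 2 the highest, and the groups overlapped. The log2 difference was -0.18 (SE 0.30, 95% interval -0.83 to 0.48; limma adjusted p = 0.883). It was 0.024 without wild type 2 and 0.19 in a fit with the muscle marker median as a covariate. The other probe set read 2.7 to 29.2, below the filter level in every mouse, and was not tested.

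Wild type 2, the highest mouse for Adipoq, Retn, Lipe, Pparg and Slc2a4, also had the highest skeletal muscle signal. The median of 18 muscle markers, centred on the 9 mice, was 0.66 there and -0.27 to 0.09 in the others. Their summed signal ran from 55082.7 to 68029.2 in knockout and from 58343.9 to 92580 in wild-type mice. Of the 18, 2 had higher and 16 lower values in the knockout, with a median log2 difference of -0.20. Ckm, the muscle creatine kinase (log2 -0.55), Actn3 of the fast-fibre sarcomere (-0.59) and Tnnc2, a fast-muscle troponin (-0.32), were the 3 at an unadjusted p under 0.05, and 0 passed limma's test. The part of muscle in the member differences was not tested beyond the covariate fits, in which Adipoq had a log2 difference of 0.42 and Retn 0.97 (limma adjusted p = 0.539 and 0.485).

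**Figure D3:**
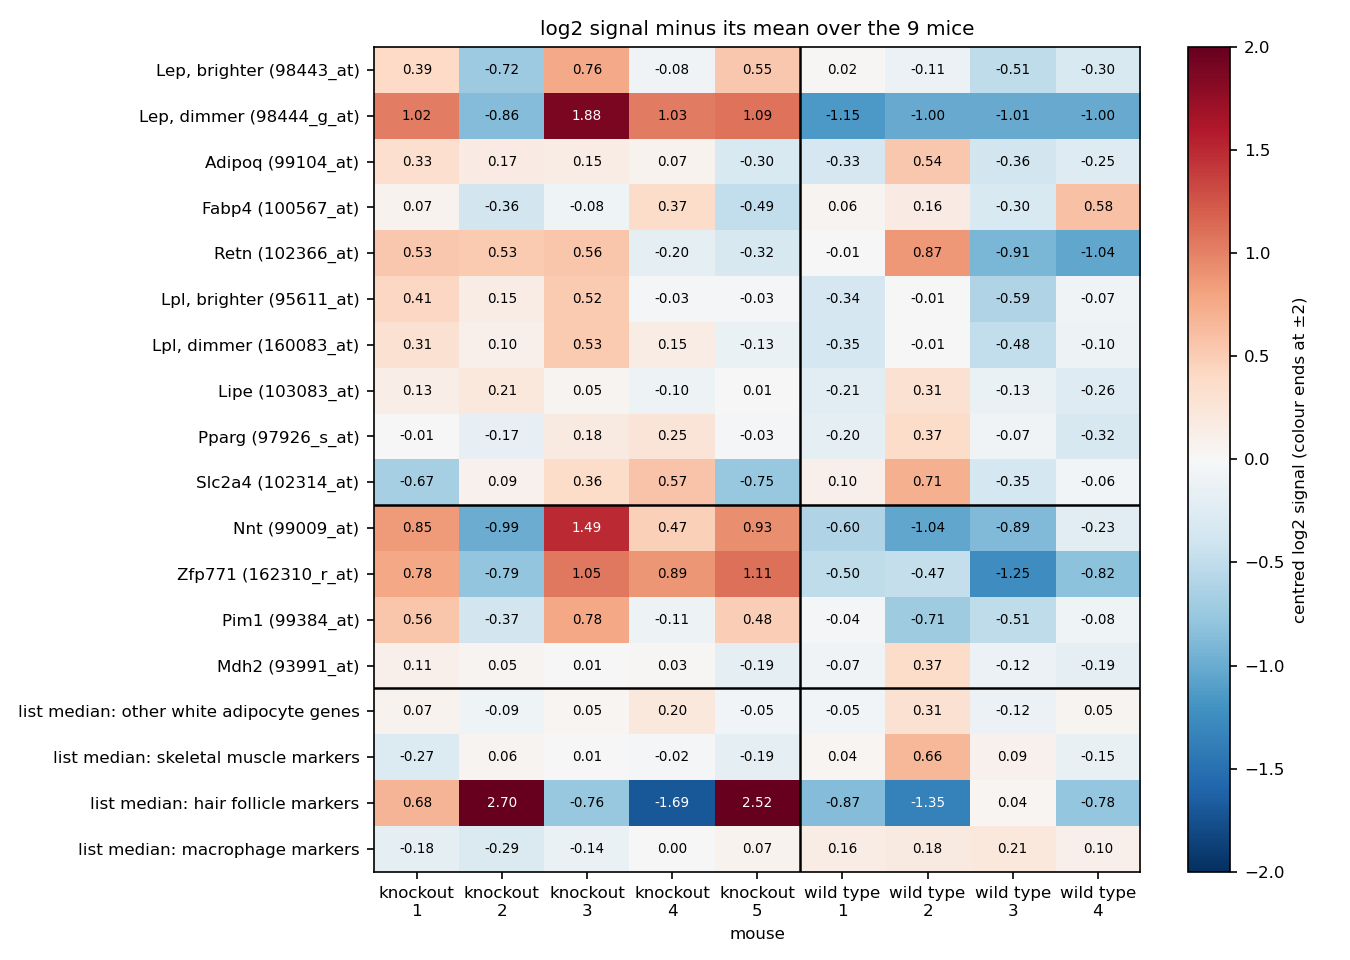
Log2 signal minus its mean over the 9 mice, for the 10 kept member probe sets (top), 4 genes whose pattern was like that of Lep or Adipoq (middle) and the medians of 4 gene lists (bottom); columns are mice, and the colour ends at 2 either way. Lep, Nnt and Zfp771 are high in knockout 1, 3, 4 and 5 or in most of them and low in knockout 2, while Adipoq, Retn, Lipe and the muscle median peak in wild type 2.

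Among the members, Adipoq, Retn and Lipe had the highest correlations between genes across mice: Pearson r over the 9 mice was 0.846 for Adipoq with Retn (Spearman rho 0.783, exact p = 0.00527 and 0.0172), 0.844 for Retn with Lipe (rho 0.817, exact p = 0.00514 and 0.0108) and 0.840 for Adipoq with Lipe (rho 0.833, exact p = 0.00634 and 0.00827). Among the 30 pairs computed, these 3 and the pair of Lpl probe sets had an adjusted exact permutation p under 0.05 for Pearson r, which was 0.0476 for each of the 3. For Spearman's rho the adjusted exact p of these 3 pairs was 0.0808 to 0.103. Without the 2 mice farthest from the median of the gene named first, r was 0.741, 0.795 and 0.741. Over the 13 alternatives r of these 3 pairs stayed between 0.739 and 0.920, but the adjusted exact p was 0.05 or more in 9 or 10 of them, up to 0.172. The decimal sets hold 5 and 4 mice, and no correlation was computed within them.

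The correlations of Lep with these genes were lower, and the difference between them was not tested. With its brighter probe set, r was 0.113 for Adipoq, 0.290 for Retn and 0.0715 for Lipe, and 0.565 for Lpl (exact permutation p = 0.772, 0.441, 0.853 and 0.112; adjusted exact p at least 0.313). Without knockout 3 and 2, the mice farthest from the Lep median, r was 0.193, 0.465, 0.379 and 0.670. The 2 Lep probe sets correlated at r = 0.810 (rho 0.611, exact permutation p = 0.0111 and 0.0869, adjusted exact p = 0.0666 and 0.261), and at 0.733 without knockout 3 and 2. With the mean of the 7 other measured member genes as a covariate, the genotype difference of Lep was 1.85 at the dimmer probe set (limma adjusted p = 0.233) and 0.38 at the brighter (0.639). Fabp4 correlated with Lipe at -0.358 and with Retn at -0.162 (exact permutation p = 0.340 and 0.671), the only negative values apart from those of Lep with Fabp4 and with Slc2a4. Without knockout 5 and wild type 4 they were -0.110 and 0.166.

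The annotated genes whose pattern over the 9 mice was most like the brighter Lep probe set were Nnt (r = 0.877), Glo1 (0.867), Pim1 (0.861), Cab39l (0.858) and Zfp771 (0.852). They are the highest 5 of all kept probe sets outside the members, so these values describe a ranking and carry no test. Nnt encodes the mitochondrial transhydrogenase that makes NADPH, and a deletion within it is a known difference between C57BL/6 substrains. It read 265.5, 74.3, 412.1, 204.3 and 280.7 for the knockout animals and 97.4, 71.6, 79.5 and 125.2 for the wild-type animals. As with the dimmer Lep probe set, knockout 2 read like a wild-type mouse and the other 4 knockout mice lay above the wild-type range.

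The correlation of Nnt with the dimmer Lep probe set was 0.953. Zfp771, a zinc finger gene, read 61.9, 20.9, 74.8, 66.7 and 77.7 against 25.4, 26, 15.2 and 20.4, with the same mouse standing apart, and correlated with it at 0.950. The log2 differences were 1.24 (SE 0.40, limma adjusted p = 0.406) for Nnt and 1.37 (SE 0.41, limma adjusted p = 0.363) for Zfp771. All wild-type values of Zfp771 and that of knockout 2 lie below the filter level. Zfp771 was thus kept through 4 knockout arrays alone, and its fold is uncertain. The dimmer Lep probe set was kept through the same 4 arrays, and Nnt and Zfp771 were picked for their likeness to Lep. Their correlations with it, and the shared place of knockout 2, therefore describe a pattern and support nothing by themselves. Lep lies on chromosome 6, Nnt on chromosome 13 and Zfp771 on chromosome 7. The part of genetic background in the Lep signal was not tested.

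The genes most like Adipoq were Hspb2 (r = 0.933), Atp5d (0.931), Mdh2 (0.918), Atp5c1 (0.901) and Timm23 (0.899). Hspb2 is a small heat shock protein of muscle. Atp5d and Atp5c1 are subunits of the mitochondrial ATP synthase, Mdh2 is an enzyme of the citric acid cycle, and Timm23 belongs to the mitochondrial import channel. Mdh2 read 2354.7, 2256.8, 2194.6, 2228.6 and 1917.6 in knockout and 2078.2, 2820.8, 2014.4 and 1911.8 in wild-type mice. Each of the 5 had its highest signal in wild type 2, and their log2 genotype differences lay between 0.00366 and 0.20.

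**Figure D4:**
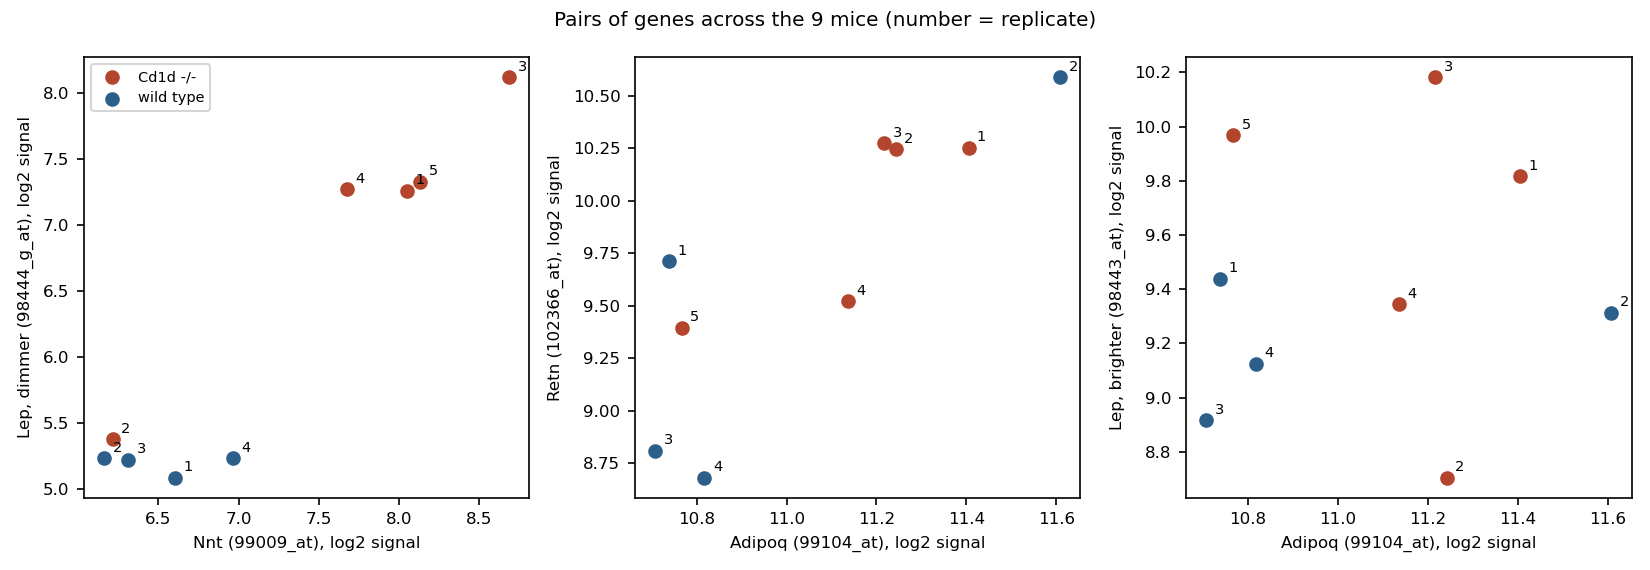
Log2 signal of pairs of genes across 5 Cd1d -/- (red) and 4 wild-type mice (blue), with the replicate number beside each point; the axes do not start at 0. The dimmer Lep probe set against Nnt leaves knockout 2 with the wild-type mice, Adipoq against Retn forms a rising band topped by wild type 2, and Adipoq against the brighter Lep probe set has r = 0.113.

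The wider set of white fat cell genes was measured too, and its members lay on either side of 0. Of 30 further genes, 23 were kept, with 15 higher, 8 lower, a median log2 difference of 0.12, and 0 past limma's test (0 higher and 2 lower at an unadjusted p under 0.05). The summed signal ran from 18471.7 to 21423 in knockout and from 18682.4 to 22304.5 in wild-type mice. Cavin1, which builds caveolae, read 1583 ± 240 against 2053 ± 226 (log2 -0.38) and Cyb5a, the cytochrome that passes electrons to lipid desaturases, 954 ± 73.5 against 1204 ± 163 (-0.33). Tfrc, the transferrin receptor, had a difference of -0.46, and Car3, a carbonic anhydrase abundant in fat and muscle, read 6209 ± 352 against 5524 ± 296 (0.17). Adjusted p from limma was 0.430 to 0.566 for these genes. Cidec, a lipid droplet protein of white fat cells, read 235 ± 84.4 and 258 ± 93.4 (log2 -0.11, limma adjusted p = 0.934), so markers of the cell type were present in the skin of both genotypes.

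Brown fat markers were near the floor of the arrays or overlapped. The uncoupling protein Ucp1, which defines brown fat cells, read 2.8 to 27 over its 2 probe sets in the 9 mice, below the filter level, and Ppargc1a, a coactivator of mitochondrial genes, 0.8 to 16.9. Of 10 brown fat genes 4 were kept, with 1 higher and 3 lower, a median of -0.20 and 0 past limma's test or an unadjusted p of 0.05. Among the kept genes were Ebf2 (log2 -0.23), Cox7a1 (-0.26) and Cox8b (-0.16), which read 423.6 to 752.7 at its brighter probe set. Cidea, which the skin also expresses in sebaceous glands, read 894 ± 350 against 702 ± 117 (log2 0.28, limma adjusted p = 0.770).

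Of the transcription factors that act around PPARG, 16 of 18 were kept, 9 higher and 7 lower, with a median of 0.045 and 0 past limma's test or an unadjusted p of 0.05. Egr2 (log2 0.25), Cebpd (-0.47), Rxra, the partner of PPARG on DNA (0.17), and Stat5b (0.25) had the smallest p values. Fatty acid and triglyceride synthesis was represented by 16 of 23 genes, 8 higher and 8 lower, with a median of 0.029. There, 0 passed limma's test and 1 had an unadjusted p under 0.05. This was the desaturase Scd2, at 1088 ± 197 against 731 ± 317 (log2 0.66, limma adjusted p = 0.487). The elongases Elovl5 and Elovl6 had differences of 0.44 and 0.49, and Gpam, which starts glycerolipid synthesis, 0.28.

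Of the genes of lipolysis and fatty acid oxidation, 14 of 19 were kept, 6 higher and 8 lower, with a median of -0.071 and 0 past limma's test (1 higher and 1 lower at an unadjusted p under 0.05). The fatty acid transporter Slc27a1 read 484 ± 81.4 against 732 ± 194 (log2 -0.58, limma adjusted p = 0.405). Abhd5, the coactivator of the first lipase of fat breakdown, read 393 ± 67.2 against 313 ± 33.2 (0.32, limma adjusted p = 0.529). That lipase, Pnpla2, had a difference of -0.34, and Mgll, which cleaves the last fatty acid, 0.38.

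The stroma from which fat cells form gave 11 of 14 genes, 7 higher and 4 lower, with a median of 0.13. Here 0 passed limma's test, 3 had an unadjusted p under 0.05, all higher (277 of 5855 genes were), and for 1 the groups did not overlap (182 of 5855). Sfrp2, a secreted modulator of Wnt signals, read 266 ± 110 against 142 ± 24.9 (log2 0.82), Wnt5a 67.5 ± 17.8 against 38.7 ± 11.8 (0.80) and Gdf10, a BMP-family ligand whose groups did not overlap, 51.7 ± 6.83 against 25.7 ± 15.9 (1.28). Adjusted p from limma was 0.420 to 0.443. The wild-type means of Wnt5a and Gdf10 lie below the filter level, so the counts that hold these genes support nothing by themselves.

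On the receiving side of the hormones, 17 of 23 signalling genes were kept, 10 higher and 7 lower, with a median of 0.050. Of these 0 passed limma's test, with 1 higher and 1 lower at an unadjusted p under 0.05. The leptin receptor Lepr read 80.5, 70.2, 48.3, 88.2 and 54.3 for the knockout animals and 64.9, 32.6, 75.1 and 59.3 for the wild-type animals at its kept probe set (log2 0.26, limma adjusted p = 0.802). Its kinase Jak2 had a log2 difference of 0.27, its effector Stat3 -0.055 and its feedback inhibitor Socs3 0.14. The adiponectin receptor Adipor2 read 554 ± 49.2 against 682 ± 99.5 (log2 -0.29, limma adjusted p = 0.531), and Pik3r1, a regulatory subunit of the kinase below the insulin receptor, 205 ± 37.6 against 135 ± 34.5 (0.62, limma adjusted p = 0.413). Socs1 had a difference of 0.31.

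Hair follicle markers varied most between mice. The centred medians of 19 follicle markers were 0.68, 2.70, -0.76, -1.69 and 2.52 in the knockout mice and -0.87, -1.35, 0.04 and -0.78 for the wild-type animals, with summed signals of 2709.3 to 39602.2 and 2247.6 to 4800.9. All 19 had higher knockout means, with a median log2 difference of 1.51, and 0 passed limma's test (7 at an unadjusted p under 0.05, where 277 of 5855 genes were higher). Krt36 had the smallest p (log2 1.02, limma adjusted p = 0.363). Knockout 2, the highest for follicle markers, was the lowest knockout mouse for both Lep probe sets. Knockout 5, the next highest, had high Lep signals. The part of hair follicles in the member differences was not tested beyond the covariate fits. With the follicle marker median added to the fit, the Lep differences were 2.31 at the dimmer probe set (limma adjusted p = 0.218) and 0.55 at the brighter (0.507), and those of Lpl 0.53 (brighter) and 0.56 (dimmer).

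Markers of immune and vessel cells had lower means in the knockout. All 13 kept macrophage markers and all 10 kept endothelial markers had lower knockout means, with medians of -0.29 and -0.18, and 0 of either passed limma's test (6 and 2 at an unadjusted p under 0.05, where 224 of all 5855 genes were lower). The groups did not overlap for 2 macrophage markers and 1 endothelial marker, Tie1, beside 182 of the 5855 genes. Csf1r, the receptor of the macrophage growth factor, had a log2 difference of -0.41 and Tie1, a receptor of endothelial cells, -0.40. The 7 kept sebaceous gland genes had a median of 0.12, with 5 higher, 2 lower and 0 past limma's test or an unadjusted p of 0.05; Pparg and Cidea stand in this list too. Their part in the member differences was not tested.

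**Figure D5:**
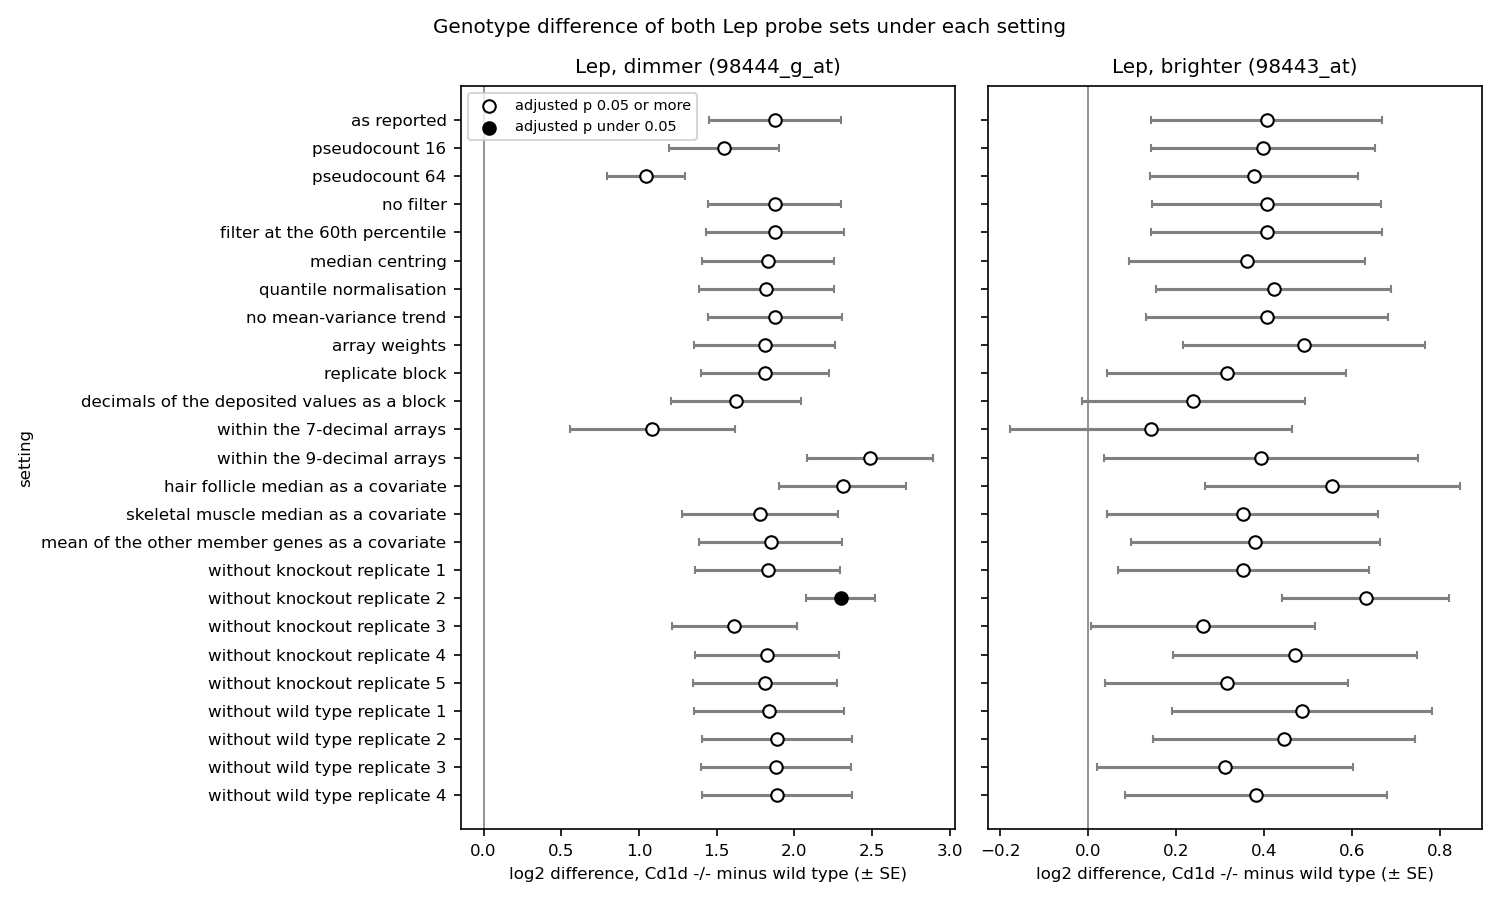
Log2 difference, Cd1d -/- minus wild type, of both Lep probe sets (left and right, with different horizontal scales) under the reported setting and 24 alternatives (vertical axis); bars are SE, and a filled point has a limma adjusted p under 0.05. At the dimmer probe set the difference lies between 1.04 and 2.49, and at the brighter between 0.14 and 0.63. Leaving out knockout 2 is the setting that passes at the dimmer probe set. That fit holds only the knockout mice through which the probe set was kept.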

How the data were processed

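The signals were made by the authors with Microarray Suite 5.0 (MAS5), per the labels' descriptions. The deposited values are natural log (ln) signals: their exponentials are whole multiples of 0.1 to within 0.000597. They were divided by the natural log of 2 and not normalised further. Of 12488 probe sets, 66 controls were left out, and 1 value is missing, at no member. Symbols came from the platform annotation (10833 probe sets with 1 gene, of which 10817 matched the gene table of GRCm38.p6, 396 with several, 1193 with none here), and promoters from RefSeq, which held 7 of the 10 members.

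Knockout was compared with wild type in R 4.3.3 with limma 3.58.1 (lmFit, eBayes with trend), two-sided, adjusted by Benjamini-Hochberg over 7658 probe sets. The fit was tested on simulated data. Exact permutation tests and figures used Python 3.11.15, SciPy 1.17.1 and matplotlib 3.10.9. The members and gene lists were chosen with earlier results of these data known, Lep among them. Named were all member probe sets, up to 4 genes per list with the smallest p, and the 5 genes most like Lep and like Adipoq; Cidec, Lepr, Stat3, Socs3, Ucp1 and Ppargc1a were added after their values were seen. Alternatives covered pseudocount, filter, scaling, trend, weights, blocks, covariates and single arrays. Detection calls were not used here, and the number of mice limits the precision.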

Additional observations from a re-analysis of the deposited data

Results flagged for a closer look

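In a group of 4 or 5 mice, a highest or lowest value whose gap to the next mouse exceeded Dixon's critical share of the range was singled out, which chance does in about 1 in 20 groups; 2 of the 20 combinations of kept member probe set and genotype met it. The Adipoq signal of wild type 2, 3122.4, lay far above the other wild-type mice (1673 to 1804.8), a gap of 0.878 of the range on the log2 scale. The signal of wild type 1 at the dimmer Lep probe set, 34, lay below the other wild-type mice (37.4 to 37.7), a gap of 0.923 of the range on the log2 scale, and all 4 values lie below the filter level.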

How the results depend on the processing

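Over 230 recomputed member differences the direction held in 225. These include the filter and trend alternatives, which change only the test and cannot turn the direction. It turned for Fabp4 (0.022) and Slc2a4 (0.16) with the hair follicle covariate, for Slc2a4 with the muscle covariate (0.19) and without wild type 2 (0.024, in a range of -0.34 to 0.024 over the arrays left out), and for Pparg within the 7-decimal arrays (-0.082). With single arrays left out the brighter Lep probe set ran from 0.26 to 0.63, Fabp4 from -0.36 to -0.069 and Pparg from 0.013 to 0.24, with no call. Only the dimmer Lep probe set without knockout 2 passed (log2 2.30, in a range of 1.61 to 2.30 over the arrays left out), which made the count of members passing 1 in place of 0 (0 to 1 over the arrays left out). The cause was not tested. The knockout mice left in that fit are those through which the probe set was kept, so this pass supports nothing by itself. The number of all probe sets passing, 4, was 7 with pseudocount 64, 9 with array weights, 10 and 0 within the 7-decimal and 9-decimal arrays (fewer arrays; for the 0, limma gave 186 at an unadjusted p under 0.05), 1 with the replicate block, and 4 to 8 with single arrays left out (7 without knockout 2, 7 without knockout 3, 8 without knockout 4). The replicate numbers name different mice (correlations of same-numbered deviations -0.05 to 0.11), and with the replicate block the Lep differences were 1.81 and 0.31. Pseudocount 64 took the dimmer Lep probe set from 1.88 to 1.04, since its wild-type signal lies under the filter level. For r of Adipoq, Retn and Lipe, alternatives chosen after seeing the data gave 0.739 to 0.920.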
